A study of Mus musculus with 6 samples.

Results

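The genes described here are the retinol dehydrogenase gene Rdh11 and 7 other genes of retinoid metabolism, measured in mouse liver under a pair of diets that oppose each other in cholesterol supply. All 8 members were measured, among 19938 genes on probe sets annotated to exactly 1 gene. Rdh11 was chosen by its rise in this comparison, and the others (Rdh10, Rdh14, Dhrs3, Aldh1a1, Aldh1a7, Rbp4 and Lrat) were listed by their role with earlier results of the comparison known. The differences of the 8 members are therefore given as a description with no test. Tests are given for other genes of the pathway and for the genes that neighbour Rdh11.

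Total liver RNA was hybridised to 6 Affymetrix Mouse Gene 1.0 ST arrays. In 1 group (LE, 3 arrays) male C57BL/6 mice ate chow that carried, per 100 g, 100 mg of lovastatin and 21 mg of ezetimibe. In the other group (CH, 3 arrays) male C57BL/6 mice ate chow carrying cholesterol powder at 1%. Lovastatin inhibits HMG-CoA reductase in the pathway to cholesterol, and ezetimibe keeps the gut from absorbing cholesterol. All mice were labelled as 6 weeks old and had 1 week of acclimatization on chow. The time on the test diets is not given in the sources used here, and a group on plain chow, which the labels name, is not analysed here. All values compare the LE diet with the CH diet, so rose and fell mean higher and lower in LE than in CH livers. Without the plain chow group, a difference cannot be assigned to either diet alone. The parts of lovastatin and ezetimibe, given together, cannot be told apart. The labels call the arrays biological replicates without tying them to single animals. P-values therefore measure the spread between these arrays, which may be partly technical. No batch is named in the labels or the values.

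Array medians lay between 158 and 163 intensity units. Over all genes limma called 12.1%, 7.01% higher and 5.08% lower in LE livers. Against these shares, 0 calls in a list of 5 to 10 markers is not a result about that list. Of 10 measured hepatocyte markers 0 passed limma's test (1 had an unadjusted p under 0.05, and 3 passed in the manner of cyberT, the test named in the series design). Their summed intensity was 143689 to 147549 on LE arrays and 146205 to 147434 on CH arrays. Of 13 macrophage and Kupffer cell markers 12 rose, with summed intensities of 14498 to 14874 on LE arrays and 11030 to 11732 on CH arrays. Of 18 markers of stellate cells and fibroblasts 0 rose and 1 fell, with 2 at an unadjusted p under 0.05 and 2 called in the manner of cyberT. By limma 0 of 9 endothelial, 0 of 5 cholangiocyte and 0 of 5 adipocyte markers passed, with 4, 1 and 0 at an unadjusted p under 0.05 and 3, 1 and 0 called in the manner of cyberT. In whole liver, a change in the number of cells of a type and a change in RNA per cell cannot be told apart.

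Retinoids are vitamin A and its derivatives. The liver takes up retinol and retinyl esters, hepatocytes release retinol bound to the carrier RBP4, and stellate cells store retinyl esters made by the acyltransferase LRAT. Retinol is oxidised reversibly to retinal by retinol dehydrogenases such as RDH10. Reductases such as DHRS3 and RDH11 work with NADPH in the opposite direction. Retinal dehydrogenases of the ALDH1A family then make retinoic acid, the ligand of the receptors encoded by Rara, Rarb and Rarg, and enzymes of the CYP26 family break it down. Rdh11 also acts on other lipid aldehydes, and it has been described in mouse as a gene regulated by the sterol regulatory element binding proteins (SREBPs), the transcription factors that control cholesterol and fatty acid synthesis.

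The sequences before the annotated starts of Rdh11 are shown because Rdh11 differed the most of the members. That of Hmgcs1, which makes HMG-CoA for cholesterol synthesis, is shown because it was among the 5 genes most like Rdh11 over the arrays and holds the letters of a sterol regulatory element. The windows of Aldh1a1 and Aldh1a7 are shown because they show how alike these neighbouring copies are. Each is the 250 bases before a RefSeq start in build GRCm38.p6, 5′ to 3′ on the gene's strand, and capitals mark the motifs found. RefSeq entries matched 7 of the 8 members, all but Rdh10, with 12 windows.

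The Rdh11 windows are chr12:79191856-79192105 and chr12:79190962-79191211 (minus strand), of which the second lies within the annotated span of the gene (chr12:79174233-79191855). The Hmgcs1 window is chr13:119690101-119690350 (plus strand). The window of the internal start of Aldh1a1 is chr19:20601718-20601967 (plus strand) and that of Aldh1a7 is chr19:20727557-20727806 (minus strand).
Rdh11 first window: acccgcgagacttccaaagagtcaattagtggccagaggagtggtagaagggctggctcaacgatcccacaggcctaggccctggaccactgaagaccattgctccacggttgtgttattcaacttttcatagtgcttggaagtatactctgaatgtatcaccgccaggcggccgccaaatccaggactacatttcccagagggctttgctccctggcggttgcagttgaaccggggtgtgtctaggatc
Rdh11 second window: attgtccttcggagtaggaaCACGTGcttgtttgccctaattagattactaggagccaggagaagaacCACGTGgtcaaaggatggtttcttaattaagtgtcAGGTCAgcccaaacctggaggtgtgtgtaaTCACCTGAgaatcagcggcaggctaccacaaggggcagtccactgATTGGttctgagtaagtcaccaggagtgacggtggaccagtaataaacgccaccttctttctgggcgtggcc
Hmgcs1: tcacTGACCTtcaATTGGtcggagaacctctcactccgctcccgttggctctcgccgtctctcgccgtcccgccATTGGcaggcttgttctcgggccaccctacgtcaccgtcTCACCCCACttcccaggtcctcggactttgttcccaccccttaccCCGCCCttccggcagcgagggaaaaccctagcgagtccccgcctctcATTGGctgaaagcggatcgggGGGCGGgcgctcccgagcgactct
Aldh1a1 internal start: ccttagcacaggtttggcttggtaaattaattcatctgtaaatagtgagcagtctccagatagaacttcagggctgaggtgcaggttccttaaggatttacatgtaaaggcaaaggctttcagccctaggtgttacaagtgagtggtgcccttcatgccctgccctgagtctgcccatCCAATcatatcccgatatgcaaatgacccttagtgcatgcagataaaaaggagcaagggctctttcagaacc
Aldh1a7: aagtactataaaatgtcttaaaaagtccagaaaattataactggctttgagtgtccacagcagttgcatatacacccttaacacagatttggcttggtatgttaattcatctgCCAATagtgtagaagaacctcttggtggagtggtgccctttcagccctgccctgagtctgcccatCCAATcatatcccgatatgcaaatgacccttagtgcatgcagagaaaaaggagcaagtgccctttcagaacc

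On both strands, 6 motifs were searched: TCACNCCAC (a form of the sterol regulatory element), TCACNTGA (an E-box form), CCAAT (the NF-Y box), GGGCGG (the GC box), CACGTG (another E-box form) and AGGTCA (a hexamer bound by many nuclear receptors). Over all 32851 windows of this length, they occurred in 1.05%, 3.45%, 33.8%, 32.7%, 6.02% and 14% of windows. The first Rdh11 window held none of the 6. The second held TCACNTGA with its first base at position -117 from the start, CCAAT on the opposite strand at -72, CACGTG at -230 and -182 and AGGTCA at -147. TCACNCCAC was found in 0 of the 12 member windows and at -137 in that of Hmgcs1. A match is a description of letters and not a binding site, and a missing match says only that these letters are not in the window.

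Rdh11 stood at intensities of 5829, 5849 and 6158 on the LE arrays, against 557.4, 459.7 and 564.7 on the CH arrays. All 3 LE arrays lay far above all 3 CH arrays, and the lowest value was that of CH2. The means were 12.54 ± 0.04 in LE livers and 9.04 ± 0.17 in CH livers on the log2(intensity + 1) scale (SD, n = 3 each). The difference, LE minus CH, was 3.50 on the log2 scale (SE 0.08), an 11.3-fold higher intensity. It ranked 9 of 19938 genes from the highest, directly after the stearoyl-CoA desaturase gene Scd2 (3.51) and before Pmvk (3.38), an enzyme of cholesterol synthesis. A probe set that is annotated to Rdh11 together with another gene was not used.

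The other 3 oxidoreductases of retinol and retinal differed far less. Rdh10, the main retinol-oxidising enzyme of retinoic acid synthesis in mouse embryos, had 1422, 1368 and 1384 in LE livers and 1080, 975.8 and 1031 in CH livers. These groups did not overlap, and the difference was 0.44 (SE 0.06), or 1.35-fold. Rdh14, a close relative of Rdh11 with a similar preference for NADPH, had 172.5, 185.9 and 207.3 in LE livers and 168.6, 187.0 and 200.0 in CH livers. These ranges overlapped almost wholly, with a difference of 0.03 (SE 0.09). Dhrs3, which reduces retinal back to retinol, had 4023, 3924 and 4307 in LE livers and 4333, 4304 and 4431 in CH livers. Its highest LE array reached just above the lowest CH array, and the difference was -0.09 (SE 0.05).

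Both Aldh1a genes were brighter on every LE array than on any CH array. Aldh1a1, which oxidises retinal to retinoic acid and is abundant in liver, had 13791, 13678 and 14287 in LE livers and 11145, 11291 and 11220 in CH livers. The difference was 0.31 (SE 0.05), or 1.24-fold. Aldh1a7, a near copy encoded beside it on chromosome 19 and known as inducible by phenobarbital, is not known to oxidise retinal. It had 6564, 6440 and 6123 in LE livers and 3851, 4064 and 4078 in CH livers. Its difference of 0.67 (SE 0.05), or 1.59-fold, was the next after that of Rdh11 among the members.

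The span of Aldh1a1 is chr19:20492583-20643463 and that of Aldh1a7 is chr19:20692953-20727556. In the 100 bases before the starts shown above, 94 were identical between them without gaps. The bases further upstream and the transcripts themselves were not compared. Transcripts of such near copies can bind the same probes, so how much of each difference belongs to each gene is uncertain.

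The carrier and the storage enzyme did not separate the diets. Rbp4, the blood carrier of retinol made by hepatocytes, had 18740, 19467 and 19678 in LE livers and 18611, 18998 and 19144 in CH livers. The groups overlapped, with a difference of 0.03 (SE 0.05). These values lie in the upper part of the arrays' scale, where the brightest probe set of all reached 32889, and a loss of contrast at such brightness was not tested. Lrat, which esterifies retinol for storage in stellate cells, had 581.1, 601.9 and 639.3 in LE livers and 653.1, 624.2 and 671.4 in CH livers. The difference was -0.10 (SE 0.06), and the groups overlapped because the highest LE array exceeded CH2. The summed intensity of the 18 stellate cell and fibroblast markers was 14544 to 15181 on LE arrays and 14011 to 14354 on CH arrays. That sum leans on its brightest markers, Dcn (5424 to 5710 in LE, 5189 to 5395 in CH) and Ecm1 (2817 to 3120 and 2576 to 2659). Reln went the other way (1187 to 1216 in LE, 1258 to 1312 in CH). By limma 0 of the 18 were called higher and 1, Col3a1, lower (difference -0.19, SE 0.05, adjusted p = 0.0389). The sum therefore does not show that these markers rose as a set. The part of stellate cells in the Lrat values was not tested.

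**Figure D1:**
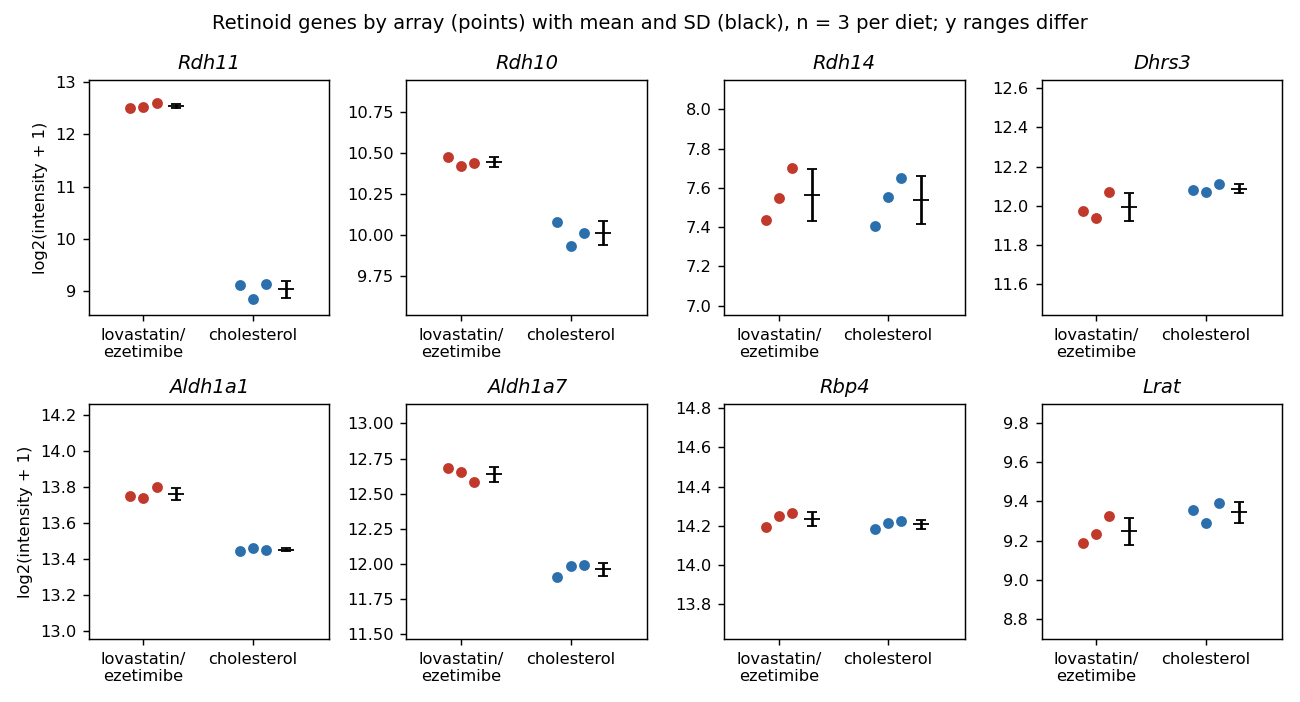
Each panel shows the log2(intensity + 1) of 1 gene on the 3 lovastatin/ezetimibe (LE) arrays at left and the 3 cholesterol (CH) arrays at right, with mean and SD in black and a y range of its own. Rdh11 is separated by 3.50 on the log2 scale, Rdh10, Aldh1a1 and Aldh1a7 by 0.31 to 0.67, and the ranges of Rdh14, Dhrs3, Rbp4 and Lrat overlap.

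Among the 8 members the difference thus ran from -0.10 for Lrat to 3.50 for Rdh11, with a median of 0.17 beside -0.0049 for all genes. The SD within a diet was between 0.01 and 0.17. In 4 of the 8 members the arrays of the diets did not overlap, all with LE higher. Over all genes 30.6% did not overlap in either direction and 15.9% did so with LE higher. Nothing is read from this count, since the same comparison was known when the members were listed.

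Rdh11 was set beside the enzymes of cholesterol synthesis, the pathway that lovastatin acts on. All 17 measured enzymes rose, with a median difference of 3.21. Their range was wide, from 0.99 (SE 0.05) for the sterol isomerase gene Ebp to 5.50 (SE 0.06) for Sqle, the squalene epoxidase (Ebp is named here as the lower end, after its value was seen). Of the 17, 6 had a larger difference than Rdh11 and 11 a smaller one. The larger ones included, besides Sqle, the lanosterol demethylase gene Cyp51 (4.29, SE 0.06), the isomerase gene Idi1 (3.76, SE 0.07) and the lanosterol synthase gene Lss (3.73, SE 0.06).

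The genes whose centred log2 values over the 6 arrays came nearest to those of Rdh11 were Scd2, Msmo1, Lss, Hmgcs1 and Idi1. Their root mean square distances from Rdh11 were 0.059, 0.092, 0.131, 0.149 and 0.162 on the log2 scale. Of these 5 genes 4 belong to the cholesterol synthesis list. Msmo1, a sterol methyl oxidase, differed by 3.62 and Hmgcs1 by 3.29. With 6 arrays in 2 groups this likeness mostly restates the size of the difference between the diets.

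**Figure D2:**
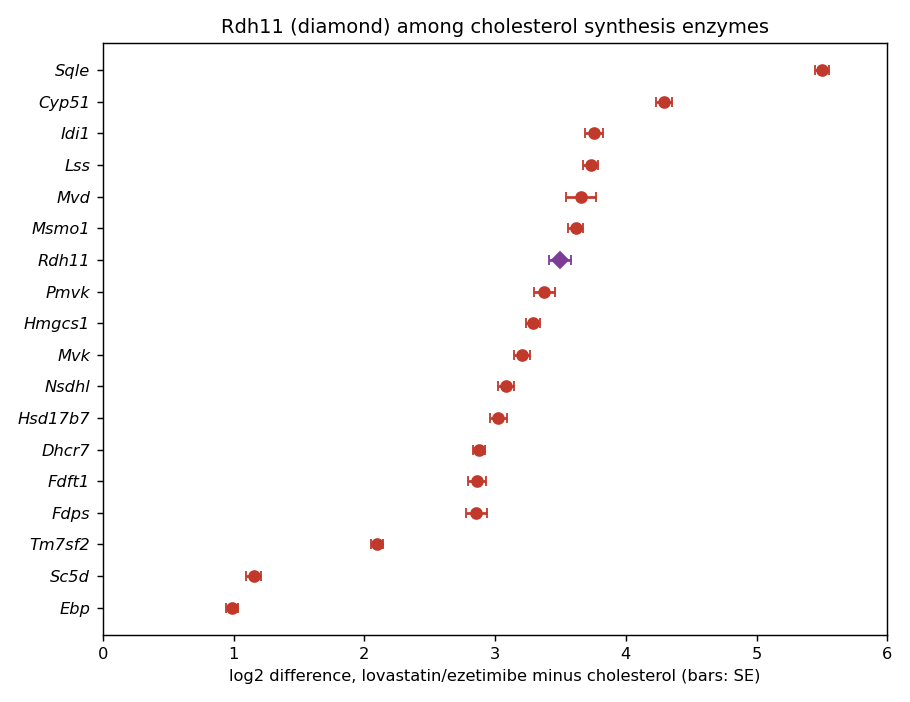
Log2 difference between lovastatin/ezetimibe and cholesterol livers, with its SE, for Rdh11 (diamond) and the 17 measured cholesterol synthesis enzymes (circles), n = 3 arrays per diet. Rdh11 at 3.50 lies within the enzymes' range of 0.99 to 5.50, below 6 of them.

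The genes beside Rdh11 on chromosome 12 differed far less than Rdh11 itself. Vti1b, a vesicle fusion protein gene whose span ends 1547 bases before that of Rdh11, had 442.7, 509.2 and 482.8 in LE livers and 500.8, 503.6 and 548.1 in CH livers (difference -0.11, SE 0.07, adjusted p = 0.3607). On the other side Rdh12, a retinal reductase gene known from photoreceptors and a close relative of Rdh11, had 49.6, 42.4 and 52.5 in LE livers and 56.8, 56.9 and 51.3 in CH livers (difference -0.19, SE 0.09, adjusted p = 0.2155). Zfyve26, which encodes a zinc finger protein of endosomes and lysosomes, rose by 0.40 (SE 0.05, adjusted p = 0.0017), with non-overlapping values of 999.4 to 1046 in LE livers and 755.0 to 794.1 in CH livers. The RNA gene Gm40462, the second gene on the Vti1b side, is not analysed here.

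Beyond the members, 68 other genes of retinoid handling were listed by role, and 65 were measured. Of these, 13 rose, 13 fell and 39 did not pass, so that 40% were called, beside 12.1% of all genes (7.01% higher and 5.08% lower). Over all genes the calls divided into 1398 higher and 1012 lower, against 1460 and 1598 after quantile normalisation and 1215 and 1294 after centring on array medians. The median difference of the 65 retinoid genes was 0.0004, beside -0.0049 for all genes. These lists, like the members, were drawn up with earlier results of the comparison known, so nothing is read from the share called. Both directions occurred within single steps of the pathway, as the following groups show.

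Of 22 further oxidoreductases of retinol and retinal, 7 rose, 5 fell and 10 did not pass, with a median of 0.04. Rdh16f2, of the Rdh16 family of retinol and steroid dehydrogenases, was at 2894, 2906 and 3045 in LE livers and 1550, 1460 and 1541 in CH livers. It rose by 0.96 (SE 0.05, adjusted p = 1.66e-05). Dhrs9, a retinol and steroid dehydrogenase gene, was at 605.4, 602.8 and 550.1 in LE livers and 317.1, 288.5 and 334.2 in CH livers and rose by 0.90 (SE 0.07, adjusted p = 1.38e-04). Rdh9, which oxidises cis-retinols and steroids, rose by 0.64 (SE 0.05, adjusted p = 1.46e-04). Hsd17b6, a steroid dehydrogenase gene that also acts on retinol, was at 3271, 3286 and 3668 in LE livers and 6082, 5897 and 5830 in CH livers, and fell by 0.80 (SE 0.06, adjusted p = 1.14e-04). In each of these the arrays of the diets did not overlap.

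The other called genes of that group, named after their values were seen, changed by less. Dhrs7 rose by 0.46, Rdh16 by 0.43, Hsd17b13 by 0.31 and Sdr16c5 by 0.22. Hsd17b11 fell by 0.59, the retinol saturase gene Retsat fell by 0.40, Dhrs4 fell by 0.35 and the alcohol dehydrogenase gene Adh4 fell by 0.30. The call of Sdr16c5, at intensities of only 31.9 to 38.1, was lost in 9 of 14 alternative settings (adjusted p up to 0.1958), and that of Hsd17b13 without CH1 (0.0613). Rdh1, Rdh7, Rdh9, Rdh16, Rdh16f2 and Rdh19 are close relatives, and signal shared between such copies was not tested.

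Of 5 further genes whose enzymes can turn retinal into retinoic acid, 2 fell and 3 did not pass. The aldehyde oxidase genes Aox3 and Aox1, which act on many aldehydes including retinal, fell by 0.84 (SE 0.06, adjusted p = 8.09e-05) and 0.72 (SE 0.05, adjusted p = 1.03e-04). Aox3 was at 5136, 5365 and 5837 in LE livers and 9832, 9671 and 9681 in CH livers. Aox1 and Aox3 are related genes too, with the same limit on shared probes.

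**Figure D3:**
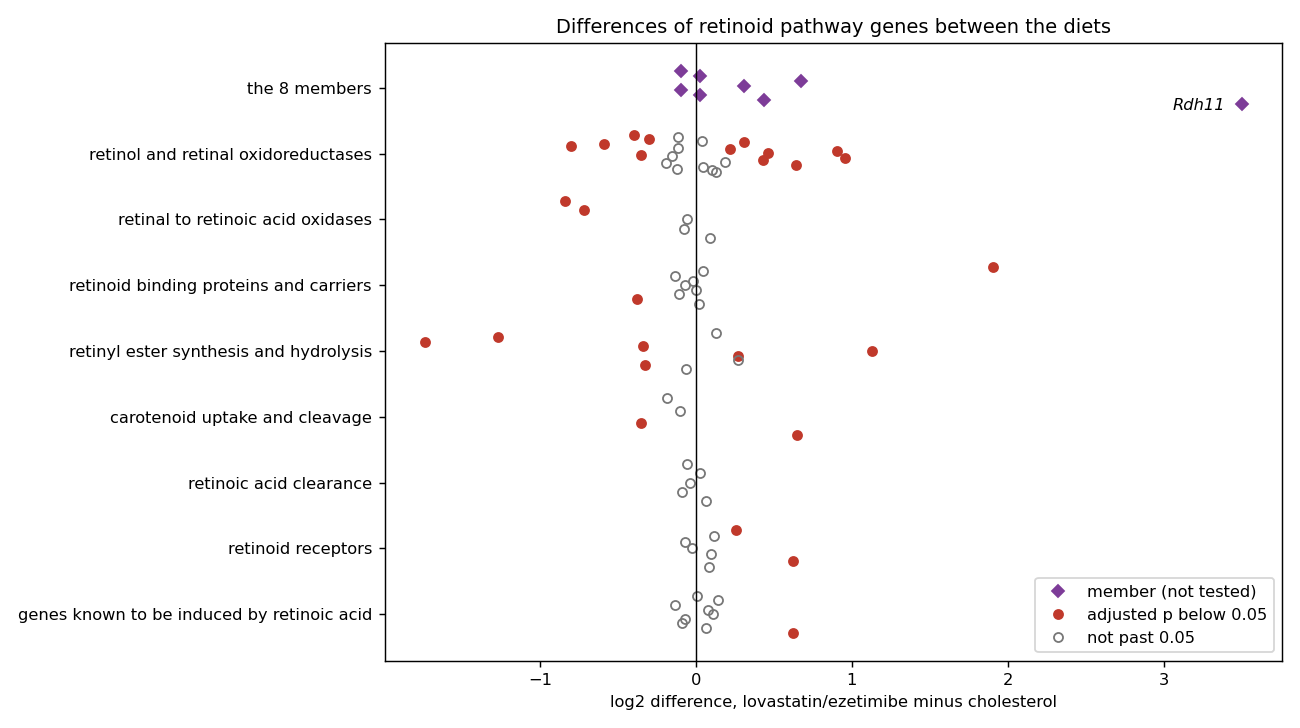
Log2 difference between lovastatin/ezetimibe and cholesterol livers for the 8 members (diamonds, not tested) and for the genes of 8 retinoid lists, 1 point per gene, filled where limma's adjusted p was below 0.05. Called genes lie on both sides of 0 in 4 of the lists, and Rdh11 at 3.50 lies beyond every listed gene, the highest of which is Fabp5 at 1.91.

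Of 9 measured binding proteins and carriers, 1 rose, 1 fell and 7 did not pass. Fabp5, which binds fatty acids and retinoic acid, was at 2778, 2798 and 2733 in LE livers and 750.3, 729.0 and 736.2 in CH livers and rose by 1.91 (SE 0.05, adjusted p = 1.81e-07). Macrophages express Fabp5 as well, and the macrophage markers listed above were higher too, by a median of 0.37. Their part in the Fabp5 difference was not tested. Rbp3, the retinoid carrier of the retina, fell by 0.38 (SE 0.08, adjusted p = 0.0177) at dim intensities of 53.7 to 55.8 in LE livers and 63.0 to 75.7 in CH livers, and did not pass without LE2, LE3, CH1 or CH2 (adjusted p 0.0561 to 0.0691).

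The lists of retinyl ester and carotenoid enzymes were divided. Of 9 measured genes of retinyl ester synthesis and hydrolysis, 2 rose, 4 fell and 3 did not pass. Ces1e, a retinyl ester hydrolase gene, was at 1044, 947.0 and 1044 in LE livers and 3333, 3459 and 3299 in CH livers and fell by 1.73 (SE 0.06, adjusted p = 1.02e-06). Lpl, the lipoprotein lipase gene, fell by 1.27 (SE 0.06, adjusted p = 7.34e-06) and Ces1d, another carboxylesterase gene, by 0.34 (SE 0.05, adjusted p = 0.0027). Pnpla3, a lipase gene whose human form acts on retinyl palmitate in stellate cells, rose by 1.13 (SE 0.06, adjusted p = 1.35e-05). The remaining calls, named after their values were seen, were Pnpla2 (0.27 higher) and Awat2 (fell by 0.33), whose call was lost under the replicate block (0.0591) and without LE2, LE3, CH1 or CH3 (0.0567 to 0.0721). The Ces1 genes are related copies. Signal shared between them was not tested, so how much of each difference belongs to each copy is uncertain.

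Of 4 genes of carotenoid uptake and cleavage, 1 rose and 1 fell. Bco1, which cleaves beta-carotene into retinal, was at 383.5, 428.5 and 452.8 in LE livers and 265.6, 270.5 and 269.1 in CH livers and rose by 0.65 (SE 0.07, adjusted p = 6.61e-04). Bco2, which cleaves carotenoids off centre, fell by 0.35 (SE 0.06, adjusted p = 0.0070). In the manner of cyberT all 4 genes of this list were called.

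Of 5 enzymes of retinoic acid clearance 0 passed limma's test, 0 had an unadjusted p under 0.05 and 0 passed in the manner of cyberT. Beside 12.1% called over all genes, 0 calls in a list of 5 is not a result about that list. The smallest p-values were those of Cyp26b1 (difference -0.09, SE 0.09, adjusted p = 0.6266) and Cyp2s1 (-0.06, SE 0.06, adjusted p = 0.6528). Cyp26a1, the enzyme gene that retinoic acid induces in liver, was at 377.9, 374.2 and 435.6 in LE livers and 387.9, 362.1 and 384.7 in CH livers (named after its value was seen; difference 0.06, SE 0.07, adjusted p = 0.6618).

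Of 7 receptor genes 2 rose and 5 did not pass. Rarb, a retinoic acid receptor gene that is itself induced by retinoic acid, was at 325.8, 360.1 and 373.8 in LE livers and 238.6, 229.1 and 220.1 in CH livers. It rose by 0.62 (SE 0.07, adjusted p = 7.19e-04), a 1.54-fold difference with no overlap. Ppard, a fatty acid receptor gene also linked to retinoic acid, rose by 0.26 (SE 0.06, adjusted p = 0.0282). Its call was lost without LE1, LE3, CH1 or CH2 (adjusted p 0.0681 to 0.1066). Of 9 measured genes known to be induced by retinoic acid, Rarb was the 1 that passed, against 2 in the manner of cyberT, and the median of the list was 0.06. That is 11.1% of the list, beside 12.1% called over all genes, so the count is not a result about the list.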

How the data were processed

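The authors deposited linear intensities, 1 per probe set and array, as the range of the values shows. Trizol was used for the RNA, per the labels. The authors tested for differential expression with Partek Genomics Suite and cyberT, per the series design. How background was corrected and probe sets summarised is not given in the sources used here. By the platform annotation, there was a single symbol for 21789 of 35556 probe sets, several for 1621 and none for 12146. Each of the 19938 genes was represented by its brightest single-gene probe set (by mean over the arrays). Of the single-gene probe sets 21698 matched the RefSeq gene table (GRCm38.p6), and 0 symbols changed.

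Values were taken as log2(intensity + 1), a scale that understates changes of dim genes. LE was compared with CH by limma 3.58.1 (two-sided, lmFit then eBayes) under R 4.3.3 over all 19938 genes, with Benjamini-Hochberg adjustment and a threshold of 0.05. With 3 arrays a diet, the smallest p of an exact permutation test is 0.1. Tables, motif searches and plots used Python 3.11.15 with pandas 2.3.3 and matplotlib 3.10.9. The number of arrays limits the precision. The most identical values between any 2 arrays were 28 of 35556.

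The members, pathway lists and tests were chosen with earlier results of these data known. Named genes are all members, per list up to 4 called genes with the largest difference (or the 2 with the smallest p where none was called), the 2 genes on each side of Rdh11 and the 5 nearest to it in profile. Genes whose values are given outside this rule are marked as such, apart from Pmvk and the markers Dcn, Ecm1, Reln and Col3a1. These, too, were named after their values were seen. Alternatives comprised a replicate block, quantile normalisation, median centring, a filter that drops the dimmest 33.3% of genes, averaging over each gene's probe sets, an intensity trend with robust prior, a regularised test after cyberT (a window of 101 genes and a prior weight of 10, chosen here), pseudocounts of 16 and none, and leaving out each array. No member had a further single-gene probe set.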

Additional observations from a re-analysis of the deposited data

How the results depend on the processing

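The Rdh11 difference was 3.40 to 3.55 over all 13 alternatives run for it, and 3.50 (SE 0.07) with the replicate block. For the members, the replicate block, the filter of dim genes and the averaging over probe sets could change the SE and not the difference. Of the other members, Rdh10, Aldh1a1 and Aldh1a7 were higher with lovastatin and ezetimibe, and Dhrs3 and Lrat lower, in every alternative run for them. Rdh14 ranged from -0.04 to 0.09 and Rbp4 from 0.0024 to 0.06, the upper value after quantile normalisation. The listed retinoid genes called higher numbered 10 to 14 and those called lower 11 to 16, with 12 and 12 under the replicate block. Of 31 pathway and neighbouring genes followed by name, 26 kept their direction and their side of the threshold in all alternatives in which they were measured. These 31 were the called retinoid genes, the uncalled ones named by the rule and the measured genes beside Rdh11. Most uncalled retinoid genes were not followed, so this count speaks mainly of calls lost and not of calls gained. The other 5 were Sdr16c5, Awat2, Rbp3, Ppard and Hsd17b13. The receptor and retinoic acid-induced genes called numbered 1 to 2 when an array was left out. Over all genes, 2410 were called, against 3746 in the manner of cyberT, 1688 with the replicate block and 1489 to 1868 when an array was left out (1489 without CH1 and 1514 without LE2). The share of calls that were higher moved with scaling, from 1398 higher and 1012 lower to 1460 and 1598 after quantile normalisation and 1215 and 1294 after centring. The replicate numbers did not pair the arrays: deviations of same-numbered arrays correlated at -0.02, -0.10 and 0.16, and LE1 and LE2 correlated best with another number. Dim genes such as Rdh12 and Sdr16c5 are limited by low signal.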
